A study of Homo sapiens with 7 samples.

Results

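SHP2 sh2 and SHP2 sh1 are separate hairpins against the same messenger RNA, that of the phosphatase SHP2, and the question here was which genes lay at a different level with the one than with the other while the SHP2 gene PTPN11 was low with both. The members were chosen by their hairpin label. They were the 3 arrays labelled SHP2 miR2 (SHP2 sh2) and the 2 labelled SHP2 miR1 (SHP2 sh1), 5 of the 7 arrays of the series, and the 2 arrays labelled CTRL miR (Ctrl shRNA) served as a reference level. All arrays were made from SUM159, a mesenchymal triple-negative breast cancer cell line, in 2D culture, with a doxycycline-inducible hairpin and 15 days of doxycycline in every group, so the controls carried an induced hairpin too. The sample labels name a column-based RNA kit and the study's array methods name TRIzol. Whether the arrays with the same hairpin came from separate cultures is not stated, so a p-value here reflects array-to-array spread that may be technical. Each group is a population of 1 cell line, the hairpin sequences were not analysed here, and unintended targets of a hairpin could not be separated from loss of SHP2.

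SHP2 is a tyrosine phosphatase that binds phosphorylated docking proteins behind growth factor receptors and helps to pass their signal to RAS and the ERK kinases. Immediate early genes such as EGR1 and FOS are common readouts of ERK signalling. Hairpin RNAs are processed by the same machinery as microRNAs, so a hairpin may also lower transcripts other than its target, and double-stranded RNA can switch on interferon-stimulated genes in some cells. For that reason hairpins against the same gene are commonly set beside each other.

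The values are log2 expression and are given in the order of the replicate numbers. PTPN11 was 7.90 and 6.93 with SHP2 sh1, 7.96, 7.20 and 7.89 with SHP2 sh2, and 9.53 and 9.18 in the controls. The hairpins overlapped and both lay below the controls. The mean with SHP2 sh2 was higher by 0.27 ± 0.37 (limma's standard error, n = 3 and 2), with a 95% interval from -0.62 to 1.16 and an adjusted p of 1.0 in limma, and without SHP2 sh1 replicate 2 the difference was -0.21. That interval leaves room for unequal knockdown in either direction. CXCL8, the gene of the chemokine IL-8, was 12.44 and 10.18 with SHP2 sh1 and 11.12, 9.44 and 11.25 with SHP2 sh2. The controls were at 11.27 and 11.38. SHP2 sh1 replicate 1 lay above them, SHP2 sh2 replicates 1 and 3 just below, and replicate 2 of each hairpin farther below. The arrays of the hairpins overlapped, and the difference was -0.71 ± 0.78. The difference of the transcription factor gene ETS1 was -0.23 ± 0.24 and that of HPRT1, a housekeeping gene, -0.15 ± 0.74. HPRT1 was 8.82 and 6.69 with SHP2 sh1, 7.99, 6.52 and 8.31 with SHP2 sh2, and 8.34 and 8.27 in the controls. It was thus low on replicate 2 of each hairpin.

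Replicate 2 of each SHP2 hairpin stood apart from the other arrays. A first principal component with 78.6% of the variance over the 7 arrays gave these arrays scores of 54.8 (SHP2 sh1) and 90.1 (SHP2 sh2), while the others lay between -44.8 and -3.01. The hairpins were therefore also compared within sets, as SHP2 sh2 replicates 1 and 3 each minus SHP2 sh1 replicate 1, and as SHP2 sh2 replicate 2 minus SHP2 sh1 replicate 2. The first 2 of these 3 differences share an array. In each set the SHP2 sh2 arrays scored above the SHP2 sh1 array on the component, so comparison within sets does not remove this axis. Bright genes lay lower along it. With the genes split by mean level into 4 equal groups, in the brightest group the median difference was -0.15, -0.0007 and -0.35 for SHP2 sh2 replicates 1, 3 and 2, and in the dimmest group it was 0.11, 0.07 and 0.22. The part of this level trend in the results below was not tested beyond the values given beside them. The mesenchymal marker VIM was bright, at a mean of 11.98 with each hairpin, and the epithelial marker EPCAM was at 3.69 and 3.72. EPCAM does not stand for all luminal markers. The 9 measured lay at a median level of the 42.1th percentile of all genes, beside the 99.5th for 7 mesenchymal markers.

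**Figure D1:**
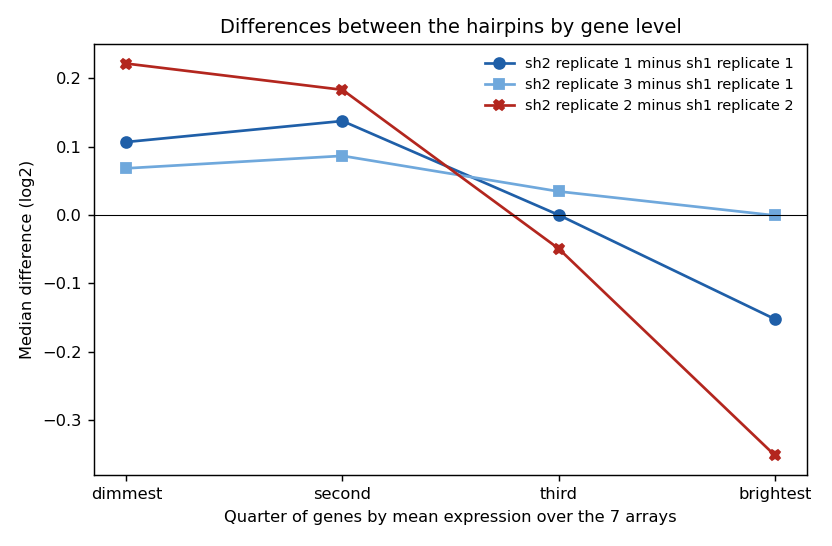
Median difference between the hairpins (vertical axis, log2) in 4 equal groups of the genes by mean expression over the 7 arrays (horizontal axis), with 1 line for each of the 3 differences within sets of arrays. All 3 lines end lower at the brightest group than they start at the dimmest, with values from 0.22 to -0.35 for the arrays that stood apart.

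No gene passed the adjusted p of 0.05 between the hairpins (limma, 0.0% of 18417 genes, all adjusted p = 1.0). Before adjustment, a limma p under 0.05 was reached by 105 genes in the direction of lower values with SHP2 sh2 (0.57%) and by 11 in the other (0.0597%). This split was not stable, with 817 lower and 809 higher with the first principal component as covariate. Counts without both arrays that stood apart are not given, since that fit leaves 1 SHP2 sh1 array. The arrays of the hairpins did not overlap for 568 genes lower with SHP2 sh2 (3.08%) and 407 higher (2.21%), which became 888 and 1000 after cyclic loess, 1007 and 989 with the level trend removed, and 1027 and 281 after median centring. All 3 differences within sets were below 0 for 3849 genes (20.9%) and above 0 for 5875 (31.9%). At least a 2-fold difference in all 3 was found for 12 genes lower with SHP2 sh2 (0.0652%) and for 0 higher (0.0%). Across genes, the mean difference of SHP2 sh2 replicates 1 and 3 and the difference of the arrays that stood apart, which share no array, had a Pearson r of 0.38 over 18417 genes, which are not independent replicates, and 0.31 after the level trend was removed. Both differences run the same way along the first principal component, and its part in this r was not tested.

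**Figure D2:**
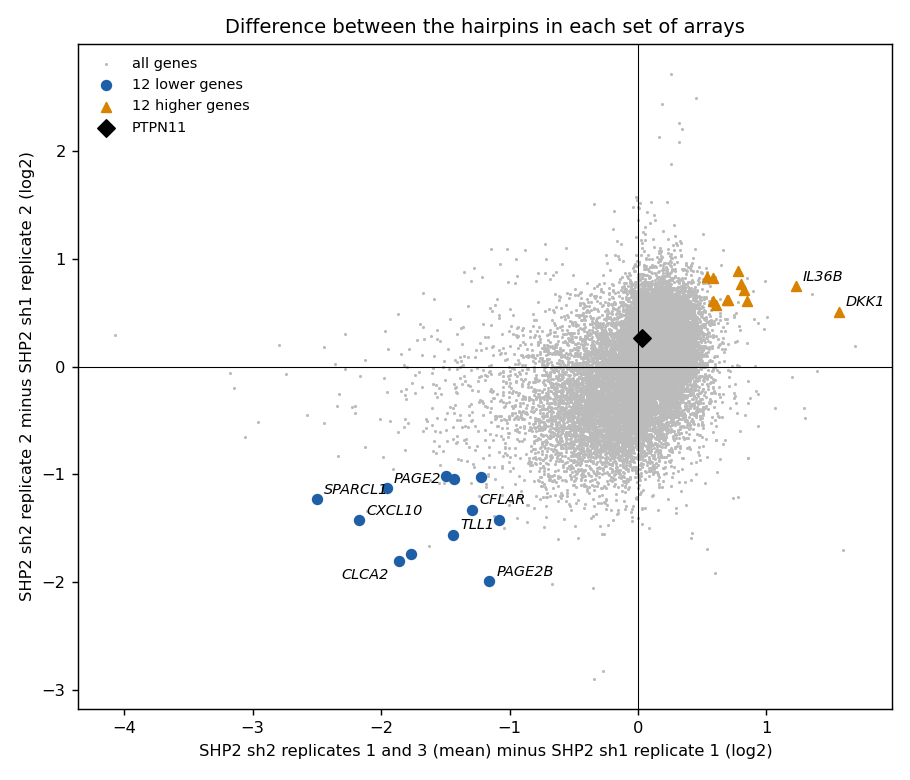
Difference between the hairpins for each gene, with SHP2 sh2 replicates 1 and 3 (mean) minus SHP2 sh1 replicate 1 on the horizontal axis and SHP2 sh2 replicate 2 minus SHP2 sh1 replicate 2 on the vertical axis, both log2. Each point is a gene, the 12 genes lower with SHP2 sh2 by at least 2-fold in all 3 differences are blue, the 12 genes of the largest differences upward are orange, and PTPN11 lies near the origin.

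The 12 lower genes were CLCA2, CXCL10, SPARCL1, CFLAR, PAGE2B, PAGE2, ID2, PRCP, S100A8, TLL1, DDX60 and MSMO1. They were picked by these differences, so their values are a description. CLCA2, a regulator of chloride conductance in epithelial cells, was 11.04 and 10.25 with SHP2 sh1, 9.05, 8.44 and 9.33 with SHP2 sh2, and 10.23 and 10.13 in the controls. Both SHP2 sh1 arrays lay above and all SHP2 sh2 arrays below the controls. The SHP2 sh2 mean was 3.27-fold lower, a log2 difference of -1.71 ± 0.35 (limma, unadjusted p = 0.00197, adjusted p = 1.0). With the first principal component as a covariate, CLCA2 was the 1 gene past the threshold, at -1.60 and an adjusted p of 0.0437 in limma. That component was computed from the same values that were tested and was added after the data were seen, so this p is a description and not a call.

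CFLAR encodes c-FLIP, an inhibitor of caspase-8 in death receptor signalling. It was 7.02 and 6.66 with SHP2 sh1, 5.79, 5.32 and 5.65 with SHP2 sh2, and 6.86 and 6.93 in the controls. On this probe it lay near the controls with SHP2 sh1 and below all other arrays with SHP2 sh2, with a mean difference of -1.25 ± 0.23. Its other, brighter probe gave a difference of -0.66, with 8.70 and 7.19 against 7.56, 6.80 and 7.49, and the hairpins overlapped. The controls were at 8.28 and 8.16 there. SHP2 sh1 replicate 2 lay below them and below SHP2 sh2 replicates 1 and 3, so the pattern as well as the size depends on the probe. CFLAR dropped out of the genes past 2-fold with the probe of the highest mean and with the mean of probes. TLL1, a metalloproteinase related to BMP1, was 9.19 and 8.27 with SHP2 sh1, 8.17, 6.71 and 7.34 with SHP2 sh2, and 9.30 and 9.15 in the controls. ID2, an inhibitor of basic helix-loop-helix factors, was 8.59 and 7.49 against 7.35, 6.45 and 6.98, and 8.33 and 8.29 in the controls. For CFLAR (on the probe first given), TLL1 and ID2, SHP2 sh1 replicate 1 was within 0.5 of the control mean. SHP2 sh2 replicates 1 and 3 averaged at least 1.0 below that mean. That comparison leaves out SHP2 sh1 replicate 2, which also lay below the controls. For TLL1 (8.27) and ID2 (7.49) it was near SHP2 sh2 replicate 1 (8.17 and 7.35). The difference was -1.33 ± 0.47 for TLL1 and -1.12 ± 0.39 for ID2.

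PAGE2B and PAGE2, members of a cancer-testis antigen family, lay nearest the controls with SHP2 sh2. PAGE2B was 8.68 and 9.20 with SHP2 sh1, 7.52, 7.21 and 7.52 with SHP2 sh2, and 6.99 and 6.87 in the controls. PAGE2 was 6.33 and 5.70, 4.61, 4.58 and 4.15, and 3.86 and 4.05 in the same order. Here the SHP2 sh1 arrays were the high ones, by 1.52 ± 0.23 for PAGE2B. For PAGE2 the controls and SHP2 sh2 lay among the dimmest values, near that of EPCAM, and were not shown to be above background, so the size of its difference is not interpreted. The genes are close copies whose probes may share signal, so they count as uncertain and not as separate observations. S100A8, a calcium-binding protein of inflammation, was 9.86 and 8.17 with SHP2 sh1, 8.84, 6.43 and 7.35 with SHP2 sh2, and 8.14 and 7.05 in the controls, and its hairpin arrays overlapped.

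SPARCL1, a matrix glycoprotein related to SPARC, had the widest mean difference of the 12, at -2.12 ± 0.82, with a wide spread between the SHP2 sh2 arrays. It was 9.71 and 9.95 with SHP2 sh1, 8.35, 8.73 and 6.06 with SHP2 sh2, and 5.99 and 7.38 in the controls. CXCL10, an interferon-induced chemokine, was 10.79 and 8.61 with SHP2 sh1, 8.41, 7.18 and 8.82 with SHP2 sh2, and 9.69 and 10.00 in the controls. Its hairpins overlapped. SHP2 sh1 replicate 1 lay above the controls, while all SHP2 sh2 arrays and SHP2 sh1 replicate 2 lay below them. SHP2 sh1 replicate 2 (8.61) was also below SHP2 sh2 replicate 3 (8.82). The difference was -0.97 ± 0.64 for PRCP, a lysosomal carboxypeptidase, -0.81 ± 0.78 for DDX60, an antiviral helicase, and -0.80 ± 1.16 for MSMO1, an enzyme of cholesterol synthesis. These genes overlapped between the hairpins. Of the 12 genes, 12 were found again after median centring, 6 after cyclic loess and 5 after the level trend was removed. DDX60, ID2, MSMO1, S100A8, SPARCL1 and TLL1 were lost both after loess and with the trend removed, and CXCL10 with the trend removed.

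**Figure D3:**
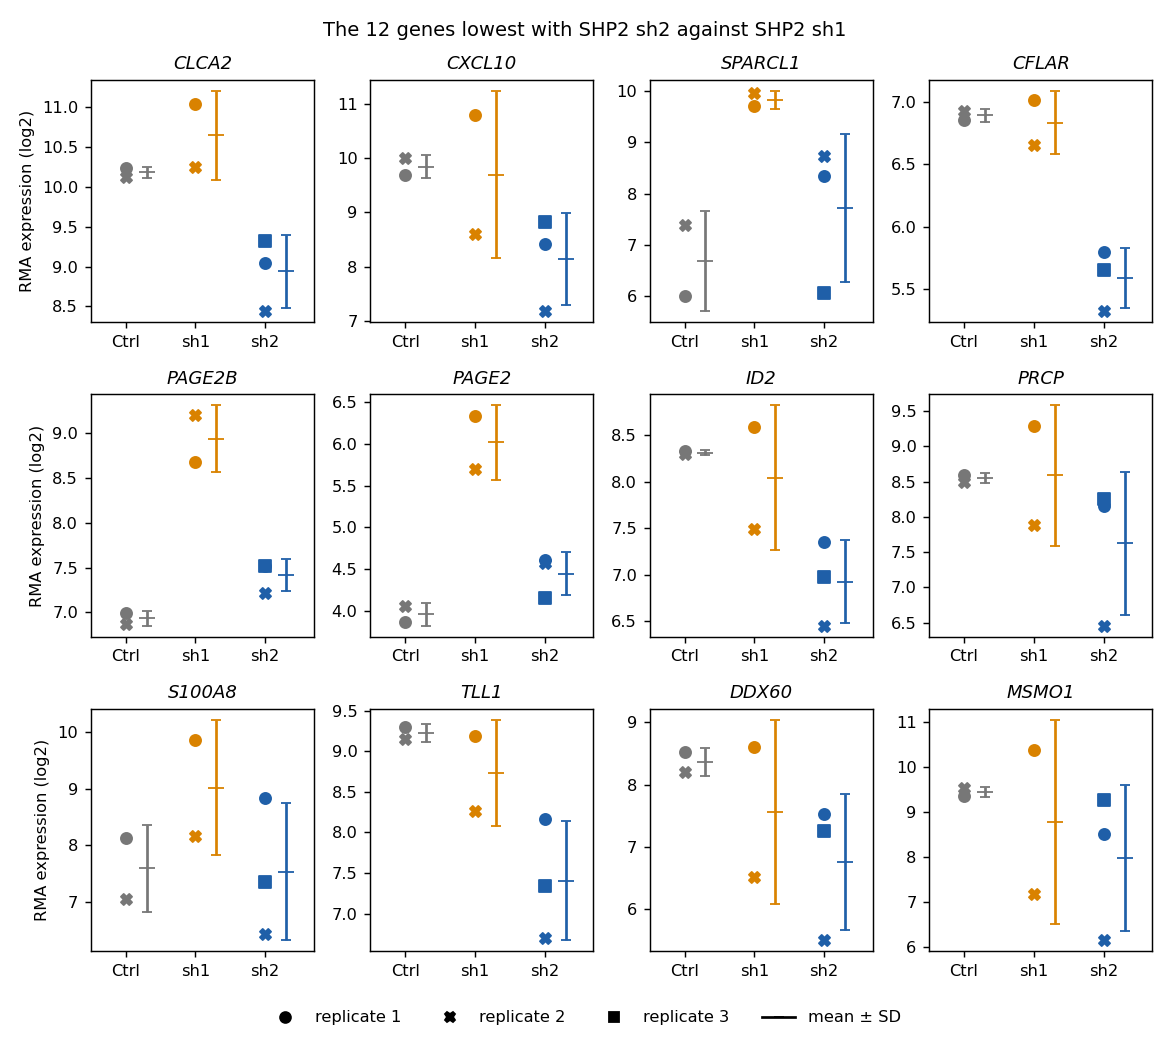
Log2 RMA expression (vertical axis) of the 12 genes lowest with SHP2 sh2 on each array, with the controls (Ctrl), SHP2 sh1 and SHP2 sh2 side by side and a scale of its own for each gene. Symbols give the replicate number and bars the mean ± SD, and for CLCA2, SPARCL1, CFLAR, PAGE2B, PAGE2, ID2 and TLL1 all SHP2 sh2 arrays lie below both SHP2 sh1 arrays.

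The 12 genes of the largest differences upward did not reach 2-fold in all 3, and 7 of them lay below the median level of all genes. They were MUC12, IL36B, GPR149, MTND2P28, LINC00889, LCE1E, LLCFC1, KRTAP10-11, KRTAP10-4, ITPRIPL1, ZBTB42 and DKK1. DKK1, a secreted inhibitor of Wnt signalling, was 8.50 and 6.67 with SHP2 sh1, 9.69, 7.18 and 10.42 with SHP2 sh2, and 9.80 and 8.40 in the controls. The arrays overlapped, and the mean was 1.51 ± 1.04 higher with SHP2 sh2. IL36B, a cytokine of the interleukin-1 family, was 5.84 and 5.02 against 7.55, 5.77 and 6.59, with controls at 5.14 and 4.93, a difference of 1.21 ± 0.52. The 3 probes of MUC12 gave differences of 0.58, 0.29 and 0.04, so its place among the 12 rests on 1 probe. The differences of the other 9 lay between 0.41 for KRTAP10-11 and 0.67 for GPR149. For the dim genes among them the level trend runs the same way, while MTND2P28 and KRTAP10-4 lay at the 94.6th and 93.7th percentile of level, where it runs the other way.

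Collagen and matrix genes were lower with SHP2 sh2 in both sets of arrays. Of 28 measured, 17 had all 3 differences below 0 and 2 above 0, against 20.9% and 31.9% of all genes, and for 10 the hairpins did not overlap with SHP2 sh2 the lower, against 3.08%. The 10 were COL1A2, COL3A1, COL5A1, COL5A2, SPARC, TNC, VCAN, LOX, LOXL2 and BGN, most of which were picked out here after their values were seen. The median difference was -0.37, beside 0.03 over all genes, and within sets it was -0.25, -0.31 and -0.46. No member passed the adjusted threshold and 3 had an unadjusted p under 0.05 in limma. The 3 members with a higher mean were COL13A1 (0.09), THBS1 (0.02) and FBN2 (0.13), also named after their values were seen.

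COL1A2, a chain of type I collagen, was 10.58 and 11.33 with SHP2 sh1, 10.29, 10.31 and 10.00 with SHP2 sh2, and 10.29 and 9.75 in the controls. The SHP2 sh2 arrays lay at or near the level of the controls and the SHP2 sh1 arrays above it, and the difference was -0.75 ± 0.30. COL3A1, the chain of type III collagen, was 10.29 and 10.32 against 9.67, 9.75 and 9.98, with controls at 9.33 and 10.12. BGN, the small proteoglycan biglycan, had the widest difference of the list, at -1.63 ± 0.60. It was 11.30 and 11.08 with SHP2 sh1, 9.80, 10.33 and 8.54 with SHP2 sh2, and 9.83 and 8.48 in the controls, again with SHP2 sh1 above the controls.

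Enzymes that cross-link collagen were among the genes that did not overlap. LOXL2, a lysyl oxidase, was 9.72 and 9.89 with SHP2 sh1, 8.998, 8.87 and 9.41 with SHP2 sh2, and 9.59 and 9.61 in the controls. Both SHP2 sh1 arrays were above and all SHP2 sh2 arrays below the controls, and the difference was -0.72 ± 0.22 (limma, unadjusted p = 0.0155, adjusted p = 1.0). LOX was 7.37 and 7.82 against 7.04, 7.06 and 6.71, with controls at 6.78 and 7.42, a difference of -0.66 ± 0.28. VCAN, the proteoglycan versican, had another order. It was 9.79 and 9.91 with SHP2 sh1, 8.93, 8.43 and 9.67 with SHP2 sh2, and 10.06 and 10.18 in the controls, so that SHP2 sh2 was the farther from the controls.

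The remaining non-overlapping members differed by -0.29 ± 0.23 for COL5A1 and -0.66 ± 0.31 for COL5A2, with SPARC at -0.36 ± 0.19 and TNC at -0.33 ± 0.22. FBN1, the microfibril gene fibrillin-1, was lower in all 3 differences, and its mean differed by -0.58 ± 0.32. Matrix genes are bright, with a median at the 91.0th percentile of all genes, where the level trend runs the same way. With that trend removed the median was -0.28, and with the first principal component as covariate it was -0.35. With any 1 of the 5 hairpin arrays left out the median lay between -0.44 and -0.32.

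**Figure D4:**
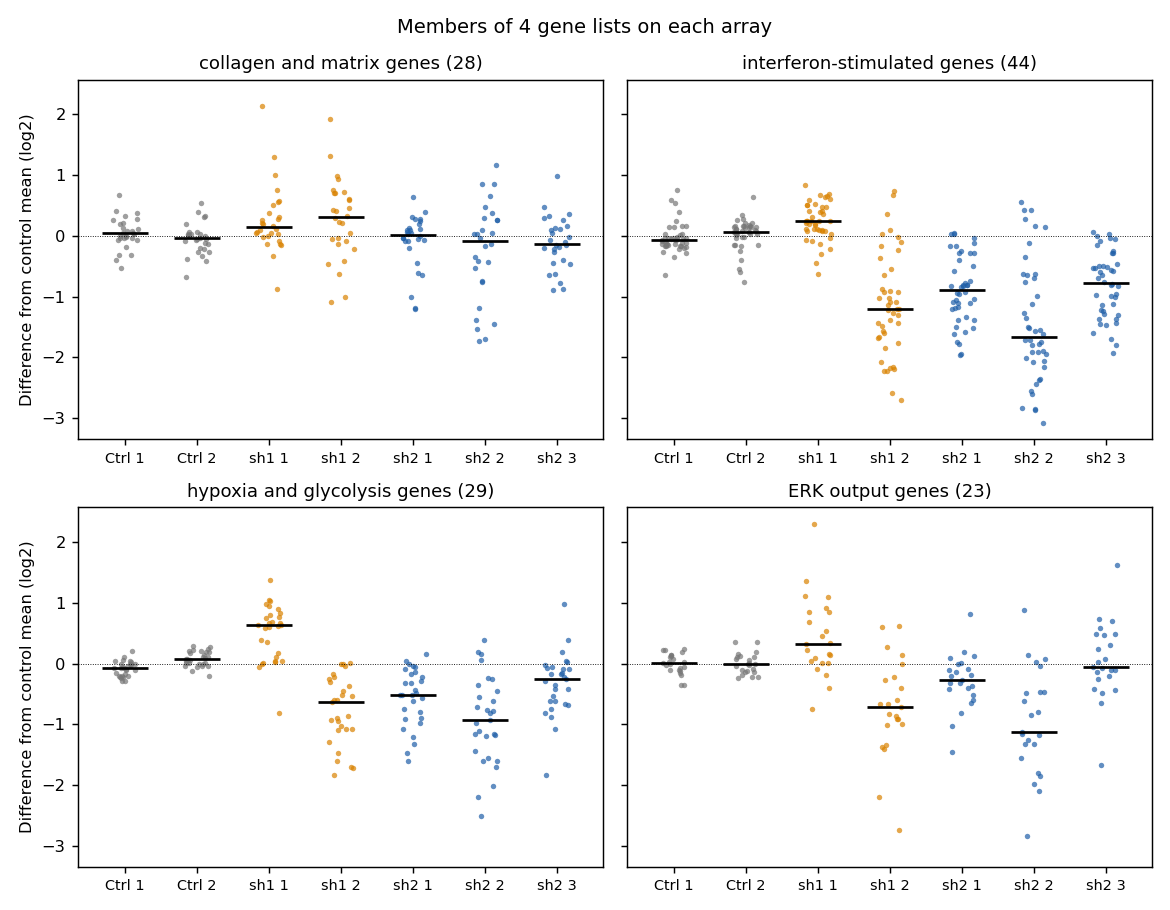
Difference of each array from the control mean (vertical axis, log2) for the members of 4 gene lists, with the 7 arrays along the horizontal axis. Each point is a gene and each bar the median, which for collagen and matrix genes is 0.14 and 0.31 with SHP2 sh1 and between -0.12 and 0.02 with SHP2 sh2, while for interferon-stimulated genes it is 0.24 and -1.20 with SHP2 sh1 and between -1.66 and -0.78 with SHP2 sh2.

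Interferon-stimulated genes were also lower with SHP2 sh2, but here the direction of the median over all hairpin arrays rested on 1 array. Of 44 measured, 32 had all 3 differences below 0 and 0 above, against 20.9% and 31.9% of all genes. For 7 the hairpins did not overlap, all with SHP2 sh2 the lower, against 3.08% of all genes. The median difference was -0.65, and within sets -1.20, -1.10 and -0.39. Without SHP2 sh1 replicate 1 it was 0.13, which then sets SHP2 sh2 against a single array that stood apart, and without SHP2 sh1 replicate 2 it was -1.49. The median deviation from the controls was 0.24 and -1.20 with SHP2 sh1 and -0.89, -1.66 and -0.78 with SHP2 sh2, so the arrays of SHP2 sh1 lay on both sides of 2 of the SHP2 sh2 arrays. The within-set median of -0.39 does not use SHP2 sh1 replicate 1. On that pair, all genes had medians of -0.05 and -0.35 in the third and brightest groups by level. The list lay at a median level of the 75.9th percentile, and with the level trend removed its median difference was -0.61.

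MX1, an antiviral GTPase, was 9.96 and 8.05 with SHP2 sh1, 7.38, 7.60 and 7.40 with SHP2 sh2, and 9.16 and 9.47 in the controls. All SHP2 sh2 arrays lay below both SHP2 sh1 arrays, and the mean difference was -1.55 ± 0.52. Its relative MX2 was 8.38 and 6.39 against 6.10, 6.37 and 6.09, with controls at 7.61 and 8.14. IFITM1, a membrane protein that restricts virus entry, was 11.69 and 10.53 against 10.50, 10.10 and 9.91, with controls at 11.41 and 11.82. For MX1, MX2 and IFITM1, SHP2 sh1 replicate 2 lay nearer to the SHP2 sh2 arrays than to SHP2 sh1 replicate 1. IFITM2 and IFITM3 differed by -0.30 ± 0.19 and -0.32 ± 0.21, and these family members are similar in sequence. BST2, which tethers virus particles to the cell, was 9.0001 and 8.57 against 8.49, 7.54 and 8.002, with controls at 9.31 and 9.57.

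UBE2L6, an enzyme that attaches ISG15 to proteins, was 8.98 and 9.41 with SHP2 sh1 and 8.57, 8.88 and 8.80 with SHP2 sh2, and it was the 1 of the 7 in which SHP2 sh1 replicate 2 lay above SHP2 sh1 replicate 1. IFI27, an interferon-induced mitochondrial protein, was lower in all 3 differences, with 10.74 and 9.48 against 8.88, 8.57 and 9.52, controls at 10.45 and 10.55, and a difference of -1.12 ± 0.43. Its arrays overlapped slightly. IFIT5, an RNA-binding antiviral protein, was 8.16 and 6.52 against 6.85, 5.59 and 7.16. The members with a higher mean were ISG15, a ubiquitin-like protein, at 0.13 ± 0.23, and CMPK2 at 0.05, and HELZ2 was at -0.04. ISG15 was 7.34 and 7.36 with SHP2 sh1 and 7.34, 7.80 and 7.30 with SHP2 sh2, so this gene of the same list showed no such gap.

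Promoters of 6 genes are shown, chosen because they hold the core of the interferon-stimulated response element, which the factor ISGF3 binds and which part of the list lacks. The core searched was GAAA, any 2 bases and GAAA again, on both strands of 300 bases around the start (RefSeq, GRCh38.p14). It was in 24 of 36 interferon-stimulated genes with a promoter in the table (66.7%), in 18 of 26 of those lower in all 3 differences (69.2%) and in 6 of 10 of the others (60.0%). Over all promoters of the table the share was 3.65%, and over the genes measured 3.04%. Of the 12 lowest genes 4 held it (33.3%), CXCL10, SPARCL1, PAGE2B and DDX60, and of the 12 highest 0 of 7 with a promoter. UBE2L6, CMPK2 and HELZ2 held no match, and ISG15, whose mean was not lower, held 2. A match is a description of the letters and not evidence of binding. The 250 bases before the start are printed 5′ to 3′ on the strand of the gene, with matches in capitals, which in BST2 overlap each other and in IFITM1 and IFIT5 also run past the start.
CXCL10 (chr4:76023498-76023747, minus strand): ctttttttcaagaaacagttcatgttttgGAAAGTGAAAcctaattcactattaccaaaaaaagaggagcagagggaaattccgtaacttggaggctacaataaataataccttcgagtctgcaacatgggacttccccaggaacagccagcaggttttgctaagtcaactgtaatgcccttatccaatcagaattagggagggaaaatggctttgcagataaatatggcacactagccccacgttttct
DDX60 (chr4:168318753-168319002, minus strand): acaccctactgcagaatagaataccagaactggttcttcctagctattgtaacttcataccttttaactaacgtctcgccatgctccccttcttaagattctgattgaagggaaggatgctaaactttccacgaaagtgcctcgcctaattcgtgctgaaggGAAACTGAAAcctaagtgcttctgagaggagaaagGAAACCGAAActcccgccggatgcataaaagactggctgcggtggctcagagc
IFI27 (chr14:94110486-94110735, plus strand): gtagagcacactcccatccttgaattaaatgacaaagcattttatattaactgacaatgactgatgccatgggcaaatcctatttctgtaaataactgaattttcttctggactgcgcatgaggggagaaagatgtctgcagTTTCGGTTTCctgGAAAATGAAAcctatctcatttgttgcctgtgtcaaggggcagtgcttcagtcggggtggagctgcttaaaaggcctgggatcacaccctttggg
IFIT5 (chr10:89414318-89414567, plus strand): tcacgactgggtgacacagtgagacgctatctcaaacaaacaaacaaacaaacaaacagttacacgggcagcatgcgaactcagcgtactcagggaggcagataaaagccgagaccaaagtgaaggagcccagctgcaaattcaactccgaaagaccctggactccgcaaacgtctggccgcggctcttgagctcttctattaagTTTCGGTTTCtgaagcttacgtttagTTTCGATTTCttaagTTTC
IFITM1 (chr11:313790-314039, plus strand): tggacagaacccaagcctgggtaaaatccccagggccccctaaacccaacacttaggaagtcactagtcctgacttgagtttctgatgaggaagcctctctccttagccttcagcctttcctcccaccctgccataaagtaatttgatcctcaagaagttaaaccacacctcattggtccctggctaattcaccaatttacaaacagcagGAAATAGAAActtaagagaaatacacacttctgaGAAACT
BST2 (chr19:17405631-17405880, minus strand): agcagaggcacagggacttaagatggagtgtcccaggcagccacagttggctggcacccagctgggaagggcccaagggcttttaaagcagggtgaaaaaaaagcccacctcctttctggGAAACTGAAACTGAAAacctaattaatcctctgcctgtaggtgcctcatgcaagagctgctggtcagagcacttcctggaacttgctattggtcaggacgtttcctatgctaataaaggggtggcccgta

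Receptors and factors of the interferon pathway showed a smaller difference. Of 24 measured, 8 had all 3 differences below 0 and 4 above, against 20.9% and 31.9% of all genes, with a median of -0.10. IRF9, the DNA-binding subunit of ISGF3, was 9.22 and 8.59 with SHP2 sh1, 8.02, 8.11 and 8.58 with SHP2 sh2, and 8.94 and 9.11 in the controls. It differed by -0.66 ± 0.28 and was the 1 of 24 members without overlap, by a narrow gap, a share near the 3.08% of all genes. The receptor genes IFNAR1, IL10RB and IFNGR1 differed by -0.55 ± 0.78, -0.55 ± 0.30 and -0.45. Among 15 sensors of double-stranded RNA and their adaptors, 11 had all 3 differences below 0 and 1 above, with a median of -0.26. This list lay at a median level of the 79.0th percentile, where the level trend runs the same way. IFIH1, the sensor MDA5, differed by -0.95 ± 0.56, TLR3 by -0.64 ± 0.49 and EIF2AK2, the kinase PKR, by -0.70 ± 0.88. Their arrays overlapped.

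The machinery that processes hairpins had a median difference of the group means near 0. Of 18 small RNA processing and Argonaute genes, 9 had all 3 differences below 0 and 0 above, with a median of -0.05. The shares of all genes were 20.9% and 31.9%. Within sets the median was -0.06, -0.01 and -0.26. The list lay at a median level of the 84.9th percentile, where the level trend runs the same way. DICER1, which cuts hairpin RNA, was 9.31 and 8.26 with SHP2 sh1 and 8.70, 7.60 and 8.71 with SHP2 sh2, a difference of -0.45 ± 0.45. AGO3, an Argonaute protein, differed by -0.36 ± 0.38. Of 19 docking and adaptor genes of SHP2, PTPN11 included, 7 had all 3 differences below 0 and 1 above, against the same shares. The median was -0.05. PAG1, a membrane adaptor that binds the kinase CSK, differed by -0.71 ± 0.62, and SOS2, an exchange factor of RAS, by -0.27.

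Among 23 ERK output genes, 12 had all 3 differences below 0 and 1 above, with a median of -0.25, against 20.9% of all genes below 0 in all 3 and 31.9% above. The hairpins did not overlap for 3, EGR1, FOS and EPHA4, against 3.08% of all genes. EGR1, an immediate early transcription factor, was 10.65 and 10.56 with SHP2 sh1, 9.78, 9.96 and 9.94 with SHP2 sh2, and 10.07 and 10.77 in the controls. The replicates of each hairpin lay close together, and the difference was -0.71 ± 0.25 (limma, unadjusted p = 0.025, adjusted p = 1.0). FOS was 8.11 and 7.55 against 6.86, 7.23 and 7.21, with controls at 7.21 and 7.33, so SHP2 sh1 was the higher and SHP2 sh2 near the controls. EPHA4, an ephrin receptor, was 7.79 and 7.87 against 7.50, 7.27 and 6.87, and at 8.37 and 8.69 in the controls it was highest. The feedback genes DUSP6, a phosphatase of ERK, and SPRY4 differed by -0.78 ± 0.58 and -0.52 ± 0.75, with overlapping arrays. Without SHP2 sh1 replicate 1 the median of the list was 0.35. The list lay at a median level of the 85.9th percentile, where the level trend runs the same way. With the first principal component as covariate its median was -0.12.

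The same shares of all genes, 20.9% and 31.9%, stand beside the counts of the lists that follow. These shares are not matched for level. Median levels were at the 88.4th percentile for hypoxia, 86.5th for inflammatory, 84.5th for class I and 89.6th for lysosomal genes. The level trend runs the same way there, and its part in the counts was not tested. With the first principal component as covariate these medians were -0.40, -0.15, -0.18 and -0.09. Of 29 hypoxia and glycolysis genes, 14 had all 3 differences below 0 and 0 above, with a median of -0.50, and without SHP2 sh1 replicate 1 the median was 0.14. NDRG1, a stress-responsive gene, was 11.24 and 9.84 with SHP2 sh1, 9.46, 9.28 and 9.37 with SHP2 sh2, and 10.16 and 10.72 in the controls. DDIT4, an inhibitor of mTOR signalling, was 9.23 and 7.52 against 6.999, 7.16 and 6.77, with controls at 8.31 and 8.88. Neither overlapped between the hairpins, and the SHP2 sh2 arrays were close to each other and below the controls. SHP2 sh1 replicate 2 also lay below the controls for both genes, nearer to the SHP2 sh2 arrays than to SHP2 sh1 replicate 1. Of the 29 genes, 2 were lower with SHP2 sh2 without overlap, against 3.08% of all genes. EGLN3, an oxygen-sensing prolyl hydroxylase, differed by -0.9993 ± 0.41, which came from the first set alone, since within sets it was -1.96, -1.64 and 0.0. The glucose transporter SLC2A1 differed by -0.59 ± 0.55, PDK1, a kinase that inhibits pyruvate dehydrogenase, by -0.86 ± 0.65, and P4HA1, which hydroxylates collagen, by -0.88 ± 0.86. Their arrays overlapped.

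Inflammatory cytokines and NF-kB targets had a median of -0.32 over 28 genes, of which 18 had all 3 differences below 0 and 2 above. IL33 and CCL5 differed by -0.90 ± 0.75 and -0.81 ± 0.63. Class I antigen processing genes had a median of -0.29, with 9 of 13 below 0 in all 3 differences, and B2M, the light chain of class I molecules, was 11.10 and 10.74 against 10.71, 10.04 and 10.64. The arrays of B2M did not overlap, by a narrow gap. PSMB9, an immunoproteasome subunit, differed by -0.32. For 17 cholesterol synthesis genes the median was -0.28, with 11 below 0 in all 3 differences. INSIG1, which holds the SREBP factors back, was 7.86 and 7.25 with SHP2 sh1 and 7.16, 6.69 and 6.98 with SHP2 sh2, a difference of -0.61 ± 0.30. SREBF2, the gene of SREBP-2, differed by -0.24 ± 0.21 and IDI1 by -0.66 ± 0.56. Without SHP2 sh1 replicate 1 the medians were 0.31 for inflammatory genes, -0.14 for class I genes and 0.09 for cholesterol synthesis.

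Of 18 p53 target genes 10 had all 3 differences below 0 and 2 above, with a median of -0.24, and CDKN1A, the inhibitor p21, and MDM2 differed by -0.47 and -0.51. Lysosomal genes had a median of -0.18, with 13 of 20 below 0 in all 3 differences, and NPC2 and GRN differed by -0.57 ± 0.31 and -0.38 ± 0.25. The metallothionein genes MT1F and MT1X differed by -0.55 ± 0.24 and -0.39 ± 0.27, and MT1F was highest with SHP2 sh1 at 11.26 and 10.87, beside 10.46, 10.27 and 10.81 with SHP2 sh2. Genes of the cell cycle had medians near 0. The median was 0.07 for 24 G1/S genes and 0.01 for 25 G2/M genes, and CDC45, a replication factor, differed by 0.36 ± 0.34. Within sets the G2/M median was -0.34, 0.39 and -0.63. The median was -0.06 for 21 amino acid and ER stress response genes, -0.10 for 18 actin, SRF and YAP target genes, -0.12 for 17 metallothionein and oxidative stress genes, and -0.05 for 11 housekeeping genes. Markers that describe the cells had medians of -0.11 for 7 mesenchymal genes of SUM159, 0.11 for 9 luminal genes, 0.10 for 7 blood cell genes and 0.23 for 7 endothelial genes. The blood cell and endothelial lists lay at median levels of the 30.8th and 27.1th percentile of all genes, where the level trend runs upward.

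**Figure D5:**
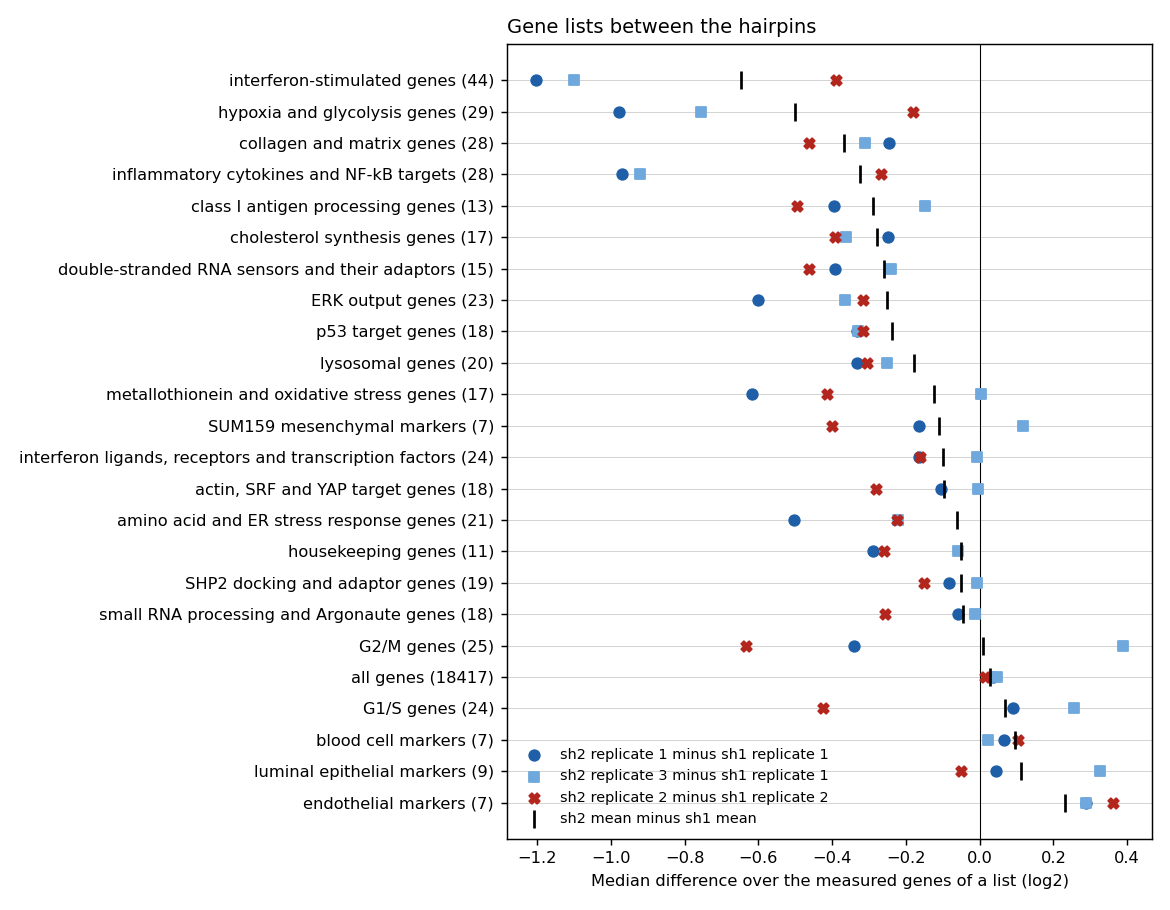
Median difference between the hairpins (horizontal axis, log2) over the measured members of 23 gene lists and over all genes, with the number of genes in parentheses. Symbols give the 3 differences within sets and the bar the difference of the means, and for collagen and matrix genes the symbols lie between -0.46 and -0.25 while for interferon-stimulated genes they spread from -1.20 to -0.39.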

How the data were processed

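RNA of SUM159 cells was hybridized to Human Gene 1.0 ST arrays. The authors made the deposited log2 values with oligo by robust multi-array averaging (background correction, quantile normalization, probe summary), and they were used as given. The genome build of the array design is not given in the sources used here. Of 33297 probes, 19460 had 1 symbol, 1754 several and 12083 none, and the gene IDs of 19429 were found in RefSeq (GRCh38.p14). The probe of the largest interquartile range stood for each of 18417 genes, of which 769 had several probes. No filter on signal was applied, and the number of arrays limits the precision.

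limma (3.58.1, R 4.3.3) fitted 3 group means over 7 arrays, with eBayes, a two-sided contrast of SHP2 sh2 minus SHP2 sh1 and Benjamini-Hochberg adjustment over all genes, and was tested on simulated data. Lists were described by counts and medians. The members, the 23 lists and the rule for named genes were chosen with earlier results of these data known. The rule took PTPN11, CXCL8, ETS1 and HPRT1, the 12 genes in each direction with the largest smallest difference within sets, leaving out unnamed, LOC, snoRNA, microRNA and olfactory receptor symbols, up to 4 per list by the same measure or otherwise the 2 of smallest p, and any gene past the threshold. It named 109 genes, of which 61 are given singly and the others only in counts. IFI44, COL6A3 and further list members were left out for length. Another 29 genes were named after their values were seen. The alternatives were other probes per gene, bright genes only, median centring, cyclic loess, array weights, an eBayes trend, a fit of the hairpin arrays alone, the replicate block, fits that dropped 1 hairpin array or the outlying pair and, added after the data were seen, the first principal component as covariate and the removal of the level trend.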

Additional observations from a re-analysis of the deposited data

Results flagged for a closer look

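CLCA2 and LOXL2 stood out because the hairpins lay on opposite sides of the controls, with both SHP2 sh1 arrays above and all 3 SHP2 sh2 arrays below both Ctrl shRNA arrays. They were flagged from the 90 genes given singly, many of which were picked for lower values with SHP2 sh2. The difference between the hairpins was -1.71 for CLCA2 and -0.72 for LOXL2, with unadjusted p of 0.00197 and 0.0155 and adjusted p of 1.0 in limma. On SHP2 sh1 replicate 2, CLCA2 exceeded the higher control only narrowly. In all, 31 genes had this order and 20 the reverse order, out of 18417 tested, and neither count was tested.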

How the results depend on the processing

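No gene passed the adjusted threshold in limma under any alternative run, except 1, CLCA2, with the first principal component as covariate. That component was computed from the same values. At an unadjusted p under 0.05, the genes lower with SHP2 sh2 numbered 57 among bright genes only, 187 after cyclic loess, 46 with array weights, 62 with the 5 hairpin arrays alone, 1505 without both arrays that stood apart, 817 with the component as covariate and between 87 and 448 with 1 array left out. Genes higher numbered 2, 66, 6 (median centring), 18 (eBayes trend), 3 (5 arrays), 1958, 809 and between 9 and 116. The extremes came without SHP2 sh1 replicate 2 for lower genes (448) and without SHP2 sh1 replicate 1 for higher genes (116). Genes lower without overlap numbered 357 among bright genes, 888 after loess, 1027 after median centring and 1007 with the level trend removed, and higher 128, 1000 (loess) and 989 (trend removed). At a 1.5-fold limit within sets, 148 genes were lower and 7 higher. The share of lower and higher genes thus moves with the scaling, and the cause was not tested.

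The replicate numbers are shared by label only, and nothing says that they pair the arrays. With the replicate block 0 genes passed, 403 were lower and 65 higher at an unadjusted p under 0.05, and the PTPN11 difference was 0.16. The numbers 1 and 2 fall partly along the arrays that stood apart, and 1 number is held by 1 array. PTPN11 lay between -0.21 and 0.75 with 1 array left out. The median of interferon-stimulated genes lay between -1.49 and 0.13, and that of collagen and matrix genes between -0.44 and -0.32.

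Of 1411 values of single genes under alternatives, 1350 kept their direction and side of the threshold, 1 passed the threshold (CLCA2) and 60 turned in direction. With 1 array left out, the difference ranged from -1.84 to 0.43 for CXCL8, -1.21 to 0.92 for HPRT1, -1.85 to 0.24 for DDX60, -2.40 to 0.80 for MSMO1, -0.0586 to 1.22 for MUC12, -0.12 to 0.95 for KRTAP10-11, -1.63 to 0.0123 for IFIT5, -1.45 to 0.36 for IFNAR1, -1.07 to 0.17 for IFNGR1, -1.98 to 0.59 for EIF2AK2, -0.97 to 0.0768 for DICER1, -0.80 to 0.0858 for AGO3, -1.66 to 0.23 for PAG1, -0.73 to 0.18 for SOS2, -1.65 to 0.61 for SPRY4, -1.87 to 0.0629 for IL33, -0.78 to 0.14 for PSMB9, -2.19 to 0.42 for P4HA1, -1.32 to 0.14 for SLC2A1, -1.86 to 0.13 for PDK1, -1.45 to 0.12 for IDI1, -1.55 to 0.53 for MDM2, -1.01 to 0.0584 for CDKN1A, -0.0337 to 0.22 for ISG15, -0.22 to 0.0931 for HELZ2, -0.35 to 0.52 for COL13A1, -0.63 to 0.68 for THBS1, -0.13 to 0.39 for FBN2 and -0.14 to 0.18 for CMPK2. With array weights, the difference was 0.27 for HPRT1, 0.0064 for IFNAR1, 0.0503 for IFNGR1, 0.0939 for MDM2, -0.0122 for ISG15, -0.15 for COL13A1, -0.0467 for FBN2 and -0.14 for CMPK2. With the component as covariate it was 0.12 for HPRT1, -0.0263 for COL13A1 and -0.0086 for CMPK2. HELZ2 was at 0.0384 after loess and 0.0583 with the replicate block, and THBS1 at -0.0018 after median centring and -0.37 with the block. Without both arrays that stood apart, ISG15, THBS1 and CMPK2 were at -0.0227, -0.0237 and -0.0196.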
